A study of Mus musculus with 10 samples.

Results

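The class IIa histone deacetylase genes Hdac4, Hdac5, Hdac7 and Hdac9 and the MEF2 transcription factor genes Mef2a, Mef2b, Mef2c and Mef2d were examined in RNA from mouse pancreatic islets. They were chosen by symbol, as a regulatory pair of gene families, and not by their values, though earlier results of these data were known. Of these 8 genes, 7 had a row among the 17945 named rows of the deposited table, and Mef2b was not analysed here. The 10 libraries came from 18-week-old C57BL/6 mice, in a study described as a β-cell knockout of the kinase gene Grk5. Of these, 5 were labelled knockout, from animals with a Pdx1-CreER driver and floxed Grk5 alleles, and 5 were labelled control, from animals with the floxed Grk5 alleles and no driver named. All 10 libraries are therefore labelled with the floxed alleles and only the knockouts are labelled with the driver, so an effect of the driver and an effect of losing Grk5 cannot be told apart. Pdx1-CreER is a Cre recombinase fused to a modified estrogen receptor and driven from the promoter of Pdx1, a gene of β cells and some other pancreatic cells. The labels used here name no inducer, sex or Cre-positive control. Whole islets hold several cell types, so fewer cells of a type and less RNA per cell cannot be told apart in any value that follows. Whether the libraries stand for separate mice is not stated in the labels, and the p-values cover only the spread among these 10.

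Class IIa histone deacetylases bind MEF2 factors on DNA and hold their target genes down. Kinases that respond to calcium and other signals phosphorylate the deacetylases, 14-3-3 proteins then bind the phosphorylated sites and the complex is kept in the cytoplasm, which frees MEF2 factors to activate transcription. This switch is best known from heart, skeletal muscle, neurons and lymphocytes. The series title places HDAC5 downstream of the kinase GRK5 in the proliferation of β cells, which make insulin. Phosphorylation and movement of a protein leave no direct trace in messenger RNA, so the values below speak only of transcript levels.

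A MEF2 motif stands at the start of 1 deacetylase gene, Hdac5, and of 1 MEF2 gene, Mef2a, which is why their sequence is shown. Promoter windows of 300 bases, from 250 bases before a gene's start to 50 after it, were taken from RefSeq on GRCm38.p6, and all 8 genes had at least 1 among 14 windows. The MEF2 consensus, a motif of 10 bases that reads alike on both strands, was found in 1 window of Hdac5 and 1 of Mef2a and in no other window of these genes. Over all 32851 windows in the same reference 3.19% held it, and 3.7% of the 27025 genes did. The letters below run 5′ to 3′ on the gene's own strand from 150 bases before the start to 20 bases after it, with the motif in capitals.
Hdac5, chr11:102230153-102230322, minus strand: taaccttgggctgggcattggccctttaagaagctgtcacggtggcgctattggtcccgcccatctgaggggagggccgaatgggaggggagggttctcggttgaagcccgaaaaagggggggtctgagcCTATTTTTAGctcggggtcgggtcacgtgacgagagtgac
Mef2a, chr7:67372839-67373008, minus strand: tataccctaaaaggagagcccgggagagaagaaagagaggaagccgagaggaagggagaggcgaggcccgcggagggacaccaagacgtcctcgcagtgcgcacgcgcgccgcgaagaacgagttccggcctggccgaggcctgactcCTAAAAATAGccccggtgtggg

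The match begins 20 bases before the start in Hdac5 and 2 bases before it in Mef2a, where it runs across the start. The letters CTATTTTTAG and CTAAAAATAG are the same site read from opposite strands. Either form stood in 36 of the 32851 windows (0.110%), and this narrower search was made after the matches had been seen. A search for the cyclic AMP response element TGACGTCA, on both strands, found it in no window of these 8 genes and in 1.79% of all windows. Such a match is a description of the letters and does not show that a factor binds there.

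The depth and labels of the libraries bear on every value. The values are normalized counts, put on a common scale by the authors, and are not whole reads. Library totals ran from 5534390 to 7358040 normalized counts, and between 10222 (knockout 1) and 14632 (knockout 3) genes were above 0. The commonest low value, which may stand for 1 read, was 3.55 normalized counts in knockout 1 and 0.527 in knockout 3. Values midway between multiples of that step made up 1.20% to 1.44% in all 5 knockouts and in controls 1 and 4, but 10.2% to 11.9% in controls 2, 3 and 5, so these 3 libraries differ in this from the knockouts and from the other controls. The defining β-cell genes were present in every library, with Ins2 between 554944.3 and 803858.1 normalized counts and Mafa between 871.7 and 2086.0. Summed acinar markers, from the digestive enzyme cells around islets, ran from 27444 to 75928 in knockouts and from 19460 (control 2) to 244135 (control 4) in controls, and 13 of 13 tested were lower in knockouts. All 10 tested β-cell markers were lower in knockouts, with a median log2 fold change of -0.21, against 52.4% of all genes lower. None of these markers passed the adjusted threshold, which none of the 11711 genes tested passed. By limma 1 acinar and 1 β-cell marker were lower at an unadjusted p under 0.05, against 2.66% of all genes. Of 7 alpha cell markers, 4 were higher and 3 lower. Among them 2 were higher at an unadjusted p under 0.05 by limma, against 2.36% of all genes.

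Grk5 and Esr1 were read first, as checks of the labels, and knockout and control mean the libraries so labelled throughout. Grk5 was 269.8, 129.9, 94.4, 207.0 and 105.5 normalized counts in knockouts 1 to 5, against 197.0, 165.0, 386.9, 331.8 and 127.9 in controls 1 to 5. Of the knockouts, 3 lay within the range of the controls and 2 below it, and the log2 fold change was -0.55 ± 0.42 (SE, adjusted p = 0.955 by limma). Without controls 2 and 5 Grk5 was at -0.94 ± 0.47 (unadjusted p = 0.0620, adjusted p = 0.998), and with library weights at -0.94 ± 0.40 (unadjusted p = 0.0277, adjusted p = 0.877 by limma). Whole-gene values do not isolate deleted exons or the cells in which the driver acted. Esr1, whose ligand-binding part belongs to CreER fusions, was between 1516.7 and 3176.8 in the 5 knockouts. Controls 1, 3 and 4 were listed at 2.0, 10.5 and 0.0, whereas control 2 held 2495.0 and control 5 held 773.5. Those 2 controls therefore go against their label on this transcript, and each of the 6 tested genes below is given with and without them.

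Among the class IIa HDAC and MEF2 genes, none differed between knockout and control islets beyond the spread of the libraries. Mef2d and Hdac5 were the most abundant MEF2 and class IIa HDAC transcripts per length of exon, Mef2a and Hdac4 followed within their families, Hdac7 and Hdac9 were low, and Mef2c was listed above 0 in 1 library. Of the 7 genes with a row, 6 passed the filter of at least 10 normalized counts in at least 5 libraries. Of those 6, 0 had an adjusted p under 0.05 by limma, 0 had an unadjusted p under 0.05 and 0 had groups that did not overlap. Over all 11711 genes tested the corresponding shares were 0%, 5.01% and 0.862%. Of the 6, 3 had a log2 fold change above 0 and 3 below it, against 47.6% above and 52.4% below over all genes. Without controls 2 and 5, 0 of the 6 had an adjusted p under 0.05 (0.00908% of the 11013 genes then tested), 0 an unadjusted p under 0.05 (4.19% of genes, 1.92% as higher and 2.27% as lower) and 0 had groups that did not overlap (3.56%). Then 4 of the 6 were above 0 and 2 below, against 46.4% and 53.6% of genes. In the authors' deposited table, 0 of the 7 genes with a row and 0.136% of 13931 genes had an adjusted p under 0.05. Fold changes are knockout over control on the log2(normalized count + 8) scale, where the changes of low genes come out too small.

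**Figure D1:**
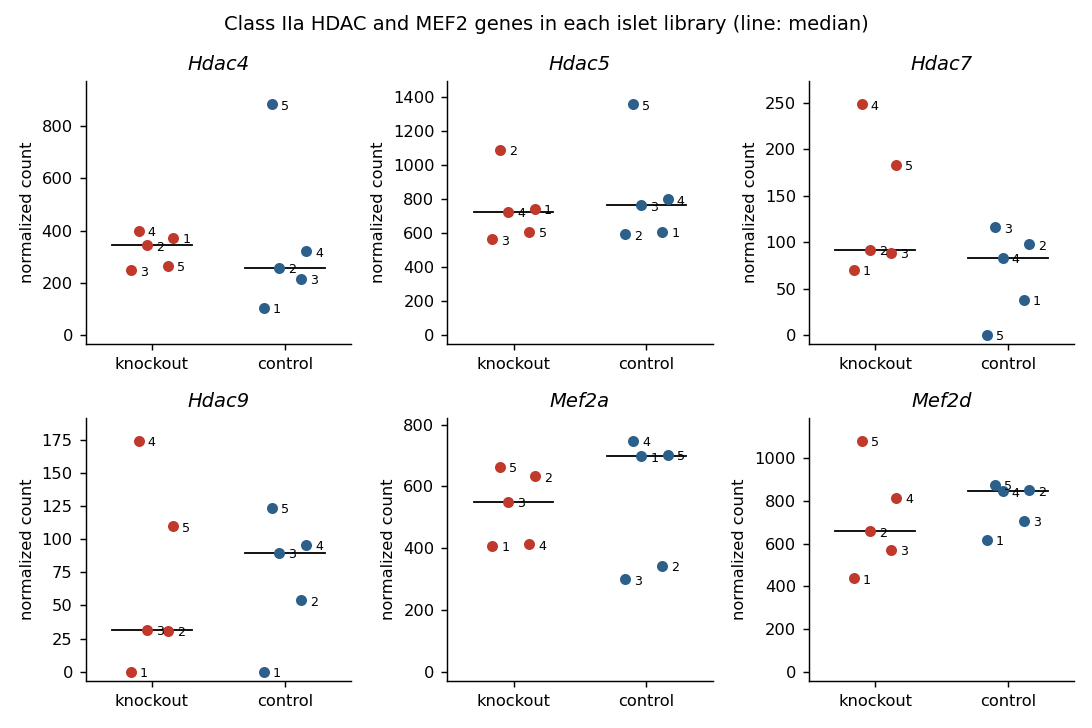
Normalized counts (vertical axes, linear) of the 6 tested genes in each of 5 knockout and 5 control islet libraries, numbered by replicate, with a line at each group's median. Control 5 stands far above the other controls for Hdac4 (884.8) and Hdac5 (1357.1) and is listed at 0 for Hdac7.

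Hdac5, on chromosome 11 from 102194432 to 102230166 on the minus strand (GRCm38), encodes the deacetylase named in the series title. It had 741.9, 1087.5, 563.7, 724.2 and 606.8 normalized counts in knockouts 1 to 5, against 606.0, 591.8, 763.3, 798.2 and 1357.1 in controls 1 to 5. Knockout 2 and control 5 were high within their groups, 4 of the 5 knockouts lay within the range of the controls, and knockout 3 lay just under it. The means were 745 ± 206 in knockouts and 823 ± 312 in controls (SD, n = 5 each). The log2 fold change was -0.11 ± 0.27 (SE), with 95% limits of -0.67 to 0.44 and an adjusted p of 0.978 by limma. Its sign turned without control 5 (0.083), without controls 2 and 5 (0.015) and without controls 2, 3 and 5 (0.059), and without knockout 2 it was -0.26. For Hdac5 the authors' deposited table has -0.15 on the log2 scale (adjusted p = 0.999). The limits leave room for a fall or a rise of up to those sizes in Hdac5.

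Hdac4, on chromosome 1 from 91928779 to 92195699 on the minus strand, encodes a second class IIa enzyme, known from growth plate cartilage, muscle and neurons. Its normalized counts were 373.4, 343.4, 248.0, 398.6 and 264.9 in knockouts 1 to 5, against 104.5, 258.1, 215.5, 320.8 and 884.8 in controls 1 to 5. The knockouts lay close together, with a coefficient of variation of 20.4%, whereas control 1 was the lowest and control 5 the highest of all 10 libraries and the controls' coefficient was 85.6%. The mean was lower in knockouts (326 ± 66.4) than in controls (357 ± 306, SD, n = 5 each), while the median was higher in knockouts, 343 against 258. The log2 fold change was 0.19 ± 0.43 (SE, 95% limits -0.71 to 1.09, adjusted p = 0.978 by limma). It was 0.60 without control 5, 0.70 ± 0.41 without controls 2 and 5 (adjusted p = 0.998), 0.77 without controls 2, 3 and 5, and -0.15 without control 1. The authors' deposited table gives -0.13 for Hdac4 (adjusted p = 0.999), the opposite sign, as the group means have. Exons of Hdac4 share 3536 bases with Gm26720 on the other strand. The library kit keeps strand, but the strand setting used in counting was not stated.

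Hdac7, on chromosome 15 from 97792664 to 97844502 on the minus strand, encodes the class IIa enzyme known from endothelium and developing T cells. It was 70.2, 92.1, 88.3, 248.8 and 183.2 in knockouts 1 to 5, against 37.9, 97.6, 116.2, 83.2 and 0.0 in controls 1 to 5. Knockouts 4 and 5 lay above every control, and the other 3 lay within the controls' range. The log2 fold change, 1.28 ± 0.71 (SE, 95% limits -0.21 to 2.77, unadjusted p = 0.0883, adjusted p = 0.942 by limma), was the highest of the 6 genes. Much of it came with the 0 in control 5, without which it was 0.59. It was 0.69 without controls 2 and 5 and 1.01 without controls 2, 3 and 5, while over pseudocounts of 1 and 32 it was 1.90 and 0.84. In the authors' deposited table Hdac7 stands at 1.02, with an adjusted p of 0.990. A listed 0 was not read as absence. For example Rnf40, a widely used gene for ubiquitin attachment to histones, is listed at 0 in 8 of the 10 libraries and at 195.6 in knockout 2. It was picked after its values were seen and does not show how the 0 of Hdac7 arose. Of 10 endothelial markers tested, 9 were higher in knockouts, against 47.6% of all genes tested. None passed the adjusted threshold, which no gene passed. The summed level of these markers was 2801 to 3601 in knockouts, highest in knockout 4, and 2361 to 3125 in controls. None was at 0 in all libraries. Of 3 defining endothelial genes, Pecam1 was highest in knockout 4 (461.0), as Hdac7 was. Kdr was nearly equal in knockouts 1 (767.1) and 4 (765.3), whereas Cdh5 was highest in knockout 2 (384.2, against 174.1 in knockout 4). These 3 genes were picked with their values in view. Kdr was the 1 of the 10 markers whose groups did not overlap (637.1 to 767.1 in knockouts against 471.1 to 621.5 in controls). Over all genes tested that share was 0.862%, which is no test of a gene picked by its values. The log2 fold changes of the 10 markers ran from -1.115 to 0.58. With the mean of the endothelial markers as a covariate the fold change of Hdac7 was 1.38 ± 0.74 (SE, adjusted p = 0.958 by limma).

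Hdac9, on chromosome 12 from 34047580 to 34917095 on the minus strand, encodes a class IIa protein whose shorter forms lack the deacetylase domain and is itself known as a MEF2 target in muscle. It was listed at 0.0, 30.7, 31.6, 174.1 and 109.7 in knockouts 1 to 5, against 0.0, 53.7, 89.8, 95.6 and 123.4 in controls 1 to 5. Knockout 1 and control 1, both at 0, were also the libraries with the fewest genes above 0, 10222 and 12423. The groups overlapped almost wholly, and the log2 fold change was -0.26 ± 0.90 (SE, 95% limits -2.16 to 1.63, adjusted p = 0.987 by limma). It was 0.39 without knockout 1, -0.98 without control 1, 0.031 without control 5, 0.16 without controls 2 and 5 and 0.75 without controls 2, 3 and 5, so no direction can be given. Ptprc, which encodes the leukocyte surface protein CD45, was also at 0 in knockout 1 and control 1 and at its highest in knockout 4 (585.0, against at most 38.6 in any other library). Other leukocyte genes did not follow it: Cd68 was highest in knockout 1 (76.7) and at 0 in knockout 4, and Csf1r was 18.6 in knockout 4 and 52.4 in control 1. Summed immune markers ran from 799 to 1361 in knockouts and from 680 to 1170 in controls, and 6 of 9 tested were lower and 3 higher in knockouts. Their part in the values of Hdac7 and Hdac9 was not tested.

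Of the MEF2 genes, Mef2d, on chromosome 3 between 88142372 and 88172086 (plus strand), is found in muscle, brain and many other tissues. It had 436.8, 658.3, 571.0, 815.1 and 1081.3 normalized counts in knockouts 1 to 5. In controls 1 to 5 it had 617.7, 849.3, 706.4, 844.5 and 874.5. The knockouts spread more widely than the controls: knockouts 1 and 3 lay below every control, knockout 5 above every control, and knockouts 2 and 4 within their range. The means were 712.5 ± 248 in knockouts and 778.5 ± 111 in controls (SD, n = 5 each). The log2 fold change was -0.18 ± 0.25 (SE, 95% limits -0.72 to 0.35, adjusted p = 0.969 by limma), -0.35 without knockout 5 and -0.024 without knockout 1. It was -0.076 without controls 2 and 5 and -0.087 without controls 2, 3 and 5, and the authors' deposited table gives -0.13 (adjusted p = 0.999) for Mef2d.

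Mef2a, on chromosome 7 from 67231163 to 67372858 on the minus strand, is expressed in many tissues. It had 407.1, 632.1, 550.0, 412.5 and 663.6 normalized counts in knockouts 1 to 5, against 696.8, 341.9, 299.7, 747.4 and 702.7 in controls 1 to 5. All 5 knockouts lay within the range of the controls, of which controls 2 and 3 were the lowest of all 10 libraries. The means were 533 ± 120 in knockouts and 558 ± 218 in controls (SD, n = 5 each), and the log2 fold change was 0.008 ± 0.31 (SE, 95% limits -0.64 to 0.65, adjusted p = 0.9997 by limma). Leaving out single libraries moved it between -0.19 (without control 3) and 0.14 (without control 4). Its sign also turned without control 2 (-0.14), knockout 2 (-0.060), knockout 3 (-0.011) or knockout 5 (-0.078), and it was -0.046 without controls 2 and 5. Without controls 2, 3 and 5 it was -0.46 ± 0.34 (SE, adjusted p = 0.999), and with the mean of the acinar markers as a covariate it was 0.33 ± 0.34 (SE, adjusted p = 0.9998 by limma). The authors' deposited table gives -0.059 (adjusted p = 0.999) for Mef2a. Exons of Mef2a share 302 bases with Lysmd4 on the other strand.

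Mef2c, on chromosome 13 from 83504034 to 83667080, encodes a MEF2 factor known from heart, neurons, endothelium and B cells. It was listed at 0 in all 5 knockouts and in controls 1, 2, 3 and 5, and at 6.4 normalized counts in control 4. It therefore did not pass the filter. With no filter on low values it was -0.17 ± 0.22 (SE, adjusted p = 0.904 by limma), a size set by the pseudocount. The authors' deposited table gives it no adjusted p. The endothelial gene Kdr, which encodes a receptor for vascular growth factor, was between 471.1 and 767.1 in all 10 libraries.

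**Figure D2:**
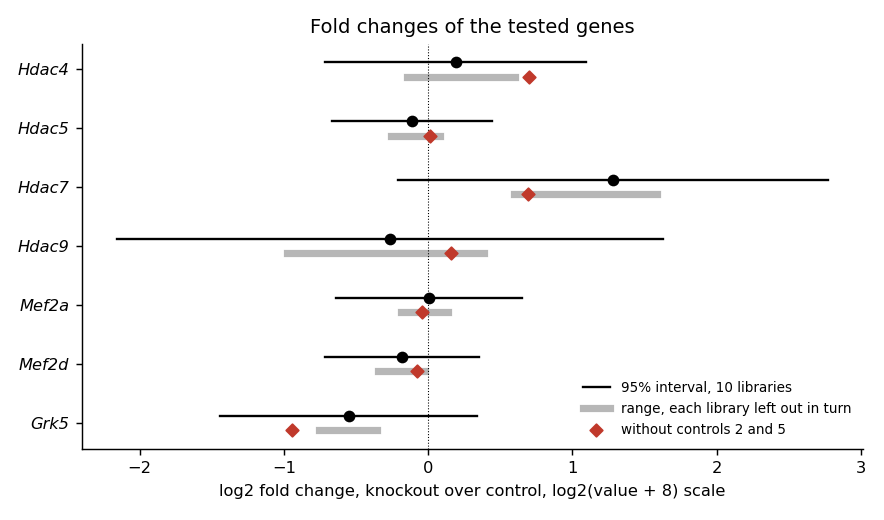
Log2 fold changes (horizontal axis, knockout over control, on the log2(value + 8) scale) of the 6 tested genes and of Grk5, with 95% limits over 10 libraries, the range with each library left out in turn (grey) and the value without controls 2 and 5 (diamonds). Every black line crosses 0, and the widest are those of Hdac9 and Hdac7.

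Levels of different genes were compared per kilobase of exon, from the union of annotated exons in GENCODE M21. Mef2d had a median of 127 normalized counts per kilobase over the 10 libraries (73.0 to 181) and Hdac5 had 83.5 (64.2 to 155). Mef2a followed at a median level of 40.3 (20.4 to 50.9) and Hdac4 at 18.5 (6.61 to 56.0). Hdac7 had a median per kilobase of 13.4 (0 to 36.8), Hdac9 of 4.89 (0 to 11.9) and Mef2c of 0 (0 to 0.409). Hdac5 exceeded Mef2a in 10 of 10 libraries and Mef2a exceeded Hdac4 in 9 of 10, but Mef2d exceeded Hdac5 in only 7 of 10, as Hdac4 did Hdac7, so neither of those neighbours was separated beyond the spread of the libraries. The order depends on the length used. Per kilobase of coding sequence Mef2a moved to rank 2 and Hdac5 to rank 3, with Mef2a above Hdac5 in 9 of 10 libraries.

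Within the families, Hdac5 took a median of 70.0% of the summed class IIa level per kilobase of exon. Its lowest share was 52.7% in knockout 4, the library with the highest Hdac7 share (23.6%), and its highest was 85.0% in control 1. The share of Hdac5 averaged 65.1 ± 9.92% in knockouts and 72.4 ± 7.26% in controls, and that of Hdac7 15.4 ± 7.28% in knockouts and 8.89 ± 5.84% in controls (SD, n = 5 each). The differences were similar in size to these SDs and were not tested. Mef2d took 68.5% to 85.9% of the MEF2 level per kilobase of exon and Mef2a nearly all of the rest. The shares depend on the length used, as the order does. Per kilobase of coding sequence Mef2d had a mean of 443 normalized counts and Mef2a 325.8, against 124.6 and 37.15 per kilobase of exon. Hdac5 and Hdac4 had 215.9 and 105.2 per kilobase of coding sequence, against 89.3 and 21.58 per kilobase of exon. Among 18 histone deacetylase and sirtuin genes, Hdac5 had the highest mean level per kilobase, 89.3, next to Hdac1 at 88.3, Hdac2 at 87.4 and Hdac6 at 83.6, whose ranges over the libraries overlap that of Hdac5. In the same order Hdac4 ranked 10, Hdac7 ranked 13 and Hdac9 ranked 17.

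**Figure D3:**
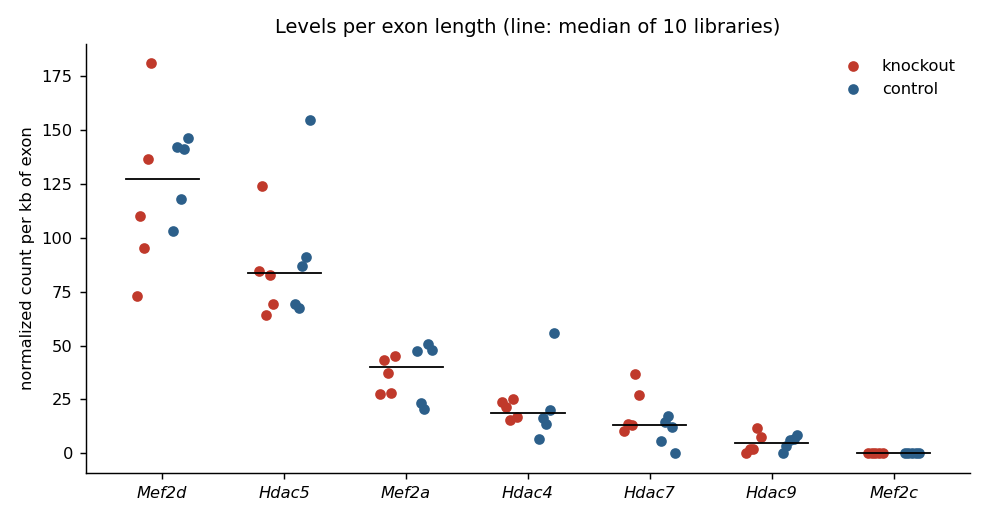
Normalized counts per kilobase of exon (vertical axis, linear) for the 7 genes with a row, ordered by their mean, with 5 knockout libraries left and 5 control libraries right of each line, which marks the median of all 10. Mef2d and Hdac5 lie above Hdac4, Hdac7 and Hdac9 in every library, and Mef2c lies at or near 0.

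The 6 tested genes did not vary as 1 block across the libraries. Of 15 pairs, 1 had a Pearson correlation with an adjusted p under 0.05, that of Hdac9 and Mef2d (r = 0.81, permutation p = 0.00312, adjusted p = 0.0468; rho = 0.77, permutation p = 0.0111, adjusted p = 0.167). Both genes were at their lowest within each group in replicate 1, and without knockout 1 and control 1, the 2 libraries farthest from the median of Hdac9, r was 0.69. The adjusted p of Hdac9 and Mef2d was over 0.05 without controls 2 and 5 (r = 0.80), without control 5 (r = 0.79) and with a pseudocount of 1 (r = 0.78). Hdac4 and Hdac5, the closest of the class IIa pairs over all 10 libraries, had r = 0.75 (permutation p = 0.0138, adjusted p = 0.104) and rho = 0.60 (permutation p = 0.0735, adjusted p = 0.551). Much of it rests on control 5, which was highest in both genes, since r was 0.47 without that library and 0.46 without controls 1 and 5. Hdac5 and Hdac7 had r = -0.62 (permutation p = 0.0699, adjusted p = 0.349) and rho = -0.26 (permutation p = 0.472, adjusted p = 0.646), and r = 0.045 without control 5. Hdac7 and Hdac9 had r = 0.15 over all 10 libraries (permutation p = 0.677, adjusted p = 0.901). Without control 5 their r was 0.84, the highest of the class IIa pairs in that setting, where no pair had an adjusted p under 0.05. Hdac5 and Mef2a, the pair with the MEF2 motif at the start, had r = 0.29 (permutation p = 0.425, adjusted p = 0.830), rho = 0.33 (permutation p = 0.350, adjusted p = 0.646) and r = -0.19 without the 2 libraries farthest from the median.

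**Figure D4:**
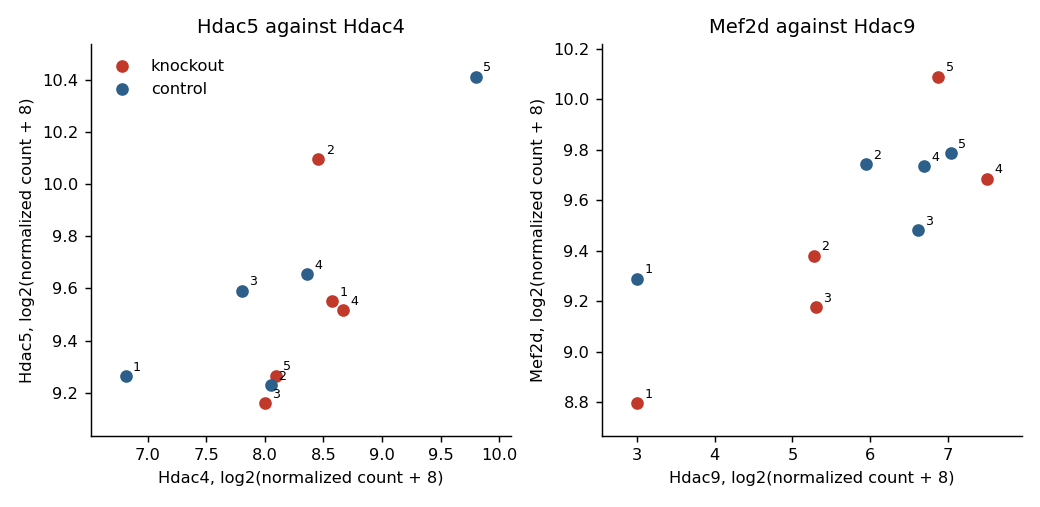
Log2(normalized count + 8) of Hdac5 against Hdac4 (left) and of Mef2d against Hdac9 (right), 1 point per library, numbered by replicate, knockouts red and controls blue. Control 5 alone occupies the upper right of the left panel, and knockout 1 and control 1, at 0 normalized counts of Hdac9, occupy the left of the right panel.

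Over the same 10 libraries and among 6930 other genes with a mean of at least 100 normalized counts, the profile most like that of Hdac5 was Tshz1, a zinc-finger transcription factor gene (r = 0.87, or 0.72 without control 5). Snx14, a sorting nexin gene, and Xrn2, a nuclear exoribonuclease gene, followed at r = 0.83 each, or 0.63 and 0.68 without control 5. For Mef2d the nearest were Zfp709 (r = 0.92), the microtubule end-binding gene Mapre3 (r = 0.92) and Nell1, which encodes a secreted glycoprotein (r = 0.91), and without control 5 they were 0.93, 0.91 and 0.95. These are the highest of 6930 values each and are given as a description.

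The partners of the pair were read from 7 lists of genes. Of 19 tested kinases that phosphorylate class IIa deacetylases or act upstream of those kinases (calcium/calmodulin-dependent, protein kinase D, salt-inducible, MARK and AMPK families), 8 were higher and 11 lower, with a median log2 fold change of -0.09, or 0.19 without knockout 1. None had an unadjusted p under 0.05 by limma, where 2.36% of all genes tested did so as higher and 2.66% as lower. The 3 with the smallest p were all lower in knockouts: Camk2b, a calmodulin-dependent kinase gene, at -0.41 ± 0.21, Sik3, a salt-inducible kinase gene, at -0.38 ± 0.24, and Mark2, a microtubule affinity-regulating kinase gene, at -0.64 ± 0.40 (log2 fold change ± SE, adjusted p = 0.942 each by limma). Camk2b had 705.0, 1084.0, 1096.4, 850.4 and 1088.4 normalized counts in knockouts, against 1342.6, 1568.2, 1185.2, 1449.5 and 888.9 in controls, so that only control 5 lay within the knockouts' range. Mark2 was -0.30 without knockout 2, and Sik3 was -0.24 without knockout 5. Without controls 2 and 5 Camk2b was at -0.47, Sik3 at -0.35 and Mark2 at -0.65. Among all genes tested, 47.6% were higher and the median was -0.03.

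Phosphatases that can remove the phosphate from these proteins, with calcineurin, had 4 of 9 higher and 5 lower, and a median of -0.02, or 0.34 without knockout 1. The catalytic subunit gene Ppp2ca was at 0.65 ± 0.31 (unadjusted p = 0.0510, adjusted p = 0.942), and without controls 2 and 5 at 1.03 ± 0.31 (unadjusted p = 0.00517, adjusted p = 0.998 by limma). Without controls 2, 3 and 5 Ppp2ca was at 1.06 ± 0.38 (unadjusted p = 0.0142, adjusted p = 0.999 by limma). Other settings made it smaller: 0.49 without knockout 1 (unadjusted p = 0.135 by limma), 0.50 without control 1 and 0.53 with the acinar covariate. Knockouts 2 (1548.2) and 5 (910.3) lay within the range of the controls for Ppp2ca, 776.2 to 1948.9. In the fit to all 10 libraries the calcineurin regulatory subunit gene Ppp3r1 was at -0.60 ± 0.30 (adjusted p = 0.942) and Ppp1cb at 0.33 ± 0.23 (adjusted p = 0.942 by limma). Ppp1cb was at 0.14 without knockout 4. The list had 7 of 9 higher without controls 2 and 5, with a median of 0.10, where 46.4% of all genes were higher. The 14-3-3 and nuclear export genes had 1 of 8 higher and 7 lower, with a median of -0.10, against 47.6% of all genes higher. That split was 4 against 4 without controls 2 and 5. Ywhah, which encodes the eta form of the 14-3-3 protein, was at -0.53 ± 0.25 (unadjusted p = 0.0463, adjusted p = 0.942 by limma). No other gene of the list had an unadjusted p under 0.05, where 2.66% of all genes had it as lower and 2.36% as higher. Ywhah was at -0.63 without controls 2 and 5 (unadjusted p = 0.0538, adjusted p = 0.998 by limma). Ywhaq and Ywhae, encoding other forms, were at 0.21 ± 0.20 (adjusted p = 0.963) and -0.11 ± 0.14 (adjusted p = 0.969 by limma).

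The corepressors that class IIa deacetylases work through, among them Hdac3 and its partners, had 5 of 13 higher and 8 lower, against 47.6% of all genes higher. Their median was -0.15, or 0.091 without knockout 1. The corepressor gene Bcor was at -0.61 ± 0.37 (adjusted p = 0.942), Gps2, a subunit of the HDAC3 complex, at -0.58 ± 0.41 (adjusted p = 0.942) and the histone methyltransferase gene Suv39h1, which was low throughout, at -1.08 ± 0.81 (adjusted p = 0.949 by limma). Control 2 held 1444.8 normalized counts of Bcor, and without that library Bcor was at -0.26. Gps2 was at -0.28 without knockout 1. Without controls 2 and 5 Bcor was at -0.22, Gps2 at -0.49 and Suv39h1 at -2.06 ± 0.85 (unadjusted p = 0.0295, adjusted p = 0.998 by limma). Controls 2 and 5 were the lowest controls for Suv39h1, at 2.1 and 9.5 normalized counts. With the acinar covariate Suv39h1 was at -0.22 (unadjusted p = 0.806 by limma). MEF2 coactivators and activating kinases had 5 of 11 higher and 6 lower, with a median of -0.04. Without controls 2 and 5 the list had 7 of 11 higher, against 46.4% of all genes, with a median of 0.28. In that list Mapk14, which encodes the p38 kinase that phosphorylates MEF2 factors, had 256.3, 240.8, 378.2, 607.1 and 300.9 normalized counts in knockouts, against 119.1, 232.8, 204.7, 197.3 and 228.6 in controls. All 5 knockouts lay above the highest control, where 0.862% of all genes tested had groups that did not overlap. Mapk14 was at 0.79 ± 0.35 on the log2 scale (SE, unadjusted p = 0.0371, adjusted p = 0.942 by limma), and at 0.96 without controls 2 and 5. It was at 0.58 without knockout 4 (unadjusted p = 0.116 by limma) and at 0.62 without control 1. No other gene of that list had an unadjusted p under 0.05, where 2.36% of all genes had it as higher. The acetyltransferase genes Crebbp and Ep300 were at -0.72 ± 0.54 (adjusted p = 0.950) and 0.24 ± 0.24 (adjusted p = 0.963 by limma), and Crebbp was -0.094 without knockout 4, where it stood at 22.7. Ep300 was at 0.12 without control 1.

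Of the other deacetylases, 8 of 12 tested were higher and 4 lower in knockouts, against 47.6% of all genes higher. Their median was 0.10, and none had an unadjusted p under 0.05, against 5.01% of all genes. The mitochondrial Sirt3 (1.33 ± 0.72, adjusted p = 0.942) and the chromatin-bound Sirt6 (1.32 ± 0.97, adjusted p = 0.946) were low in most libraries, and the tubulin deacetylase gene Hdac6 was at 0.44 ± 0.35 (adjusted p = 0.955 by limma), with the sign turned (-0.091) when the acinar markers were a covariate. Hdac6 was at 0.21 without knockout 1 and at 0.81 ± 0.38 without controls 2 and 5 (unadjusted p = 0.0516, adjusted p = 0.998 by limma). Sirt6 held 358.7 normalized counts in knockout 1 and at most 68.0 in any other library.

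Genes known as MEF2 targets in muscle, neurons, T cells or endothelium had 3 of 11 tested members higher and 8 lower, against 47.6% of all genes higher. The list's median was -0.40, against -0.03 over all genes. That median moved between -0.19 (without knockout 1) and -0.64 (without knockout 4) with single libraries left out, and was -0.14 with library weights, -0.20 with the acinar covariate and -0.20 with a pseudocount of 32. The 2 members with the smallest p were both lower in knockouts. Nr4a1, an orphan nuclear receptor gene that class IIa deacetylases hold down in T cells, had 599.9, 803.3, 967.1, 1460.9 and 1115.3 normalized counts in knockouts, against 1285.3, 1153.8, 2140.4, 2107.4 and 1816.7 in controls. Only knockout 4 lay above the 2 lowest controls. Its log2 fold change was -0.79 ± 0.25 (SE, unadjusted p = 0.00492, adjusted p = 0.942 by limma). Arc, an activity-dependent neuronal gene, had 248.5, 150.9, 313.8, 336.4 and 506.4 in knockouts, against 392.4, 395.8, 891.6, 546.8 and 1015.7 in controls, and was at -1.03 ± 0.36 on the log2 scale (SE, unadjusted p = 0.00990, adjusted p = 0.942 by limma). Only knockout 5 reached into the range of the controls. No member passed the adjusted threshold, and 2 lower and 0 higher had an unadjusted p under 0.05 by limma, against 2.66% and 2.36% of all genes. The list held 17 genes, of which 11 had a row. It was chosen with earlier results of these data known, so its counts and median are a description and not an independent test. Without controls 2 and 5 the list had 2 of 11 higher, against 46.4% of all genes, with a median of -0.33. In that setting Nr4a1 and Arc were at -0.92 ± 0.29 and -0.98 ± 0.41 (adjusted p = 0.998 each by limma). With the acinar markers as a covariate the unadjusted p was 0.0700 for Nr4a1 (-0.53) and 0.0690 for Arc (-0.81), and without controls 2, 3 and 5 Arc was at -0.66. Both genes are also known as early response genes induced by calcium and cyclic AMP signals through other factors.

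**Figure D5:**
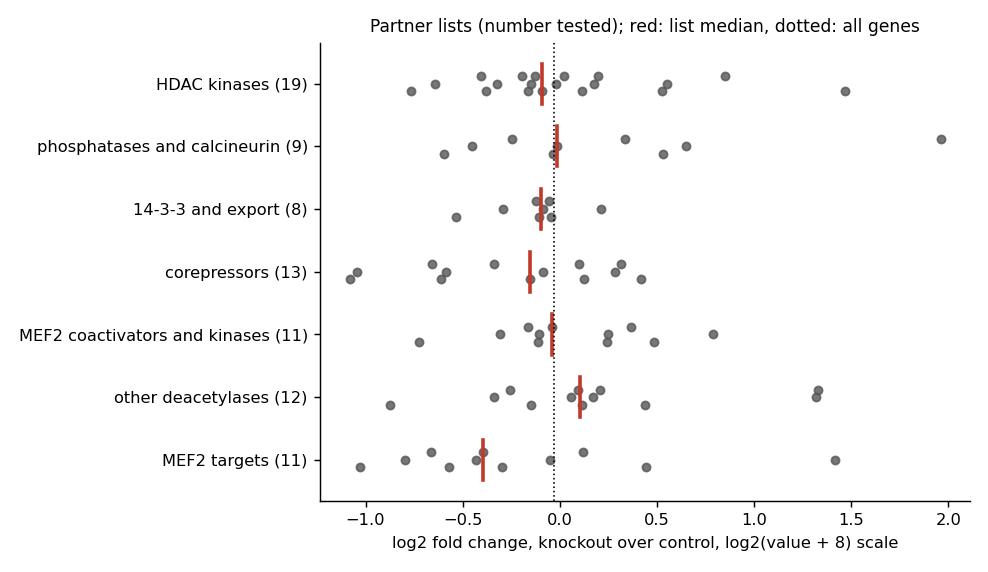
Log2 fold changes (horizontal axis, knockout over control, on the log2(value + 8) scale) of every tested gene in 7 lists of partners, 1 grey point per gene, with the list median in red and the median of all genes tested as a dotted line at -0.03. The MEF2 targets have the lowest median (-0.40) and the other deacetylases the highest (0.10).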

How the data were processed

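The deposited table holds, per gene and library, a normalized count, used here as a signal unit on a common scale. The authors did not state how it was made in the sources used here. STAR 2.4.0.1, HTSeq and DESeq2 stand in the submitters' processing notes, with no role given, and the build, annotation and strand setting are not given in the sources used here. Per the labels' protocols, ribosomal RNA was removed and a stranded random-primed kit was used. Between 25.0% and 37.0% of the values above 0 were whole multiples of a library's commonest low value (tolerance 0.01), so whole reads were not recovered and no count model was run. The deposited log2 fold changes, test score, p-values and adjusted p-values of the authors are quoted only as theirs. Of 17946 rows, 1 without a name was left out (0.00774% to 0.0251% of a library).

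Genes with at least 10 normalized counts in at least 5 libraries (11711) were compared on log2(value + 8) in limma 3.58.1 (R 4.3.3), using a mean-variance trend, robust variances and Benjamini-Hochberg adjustment over all of them. The steps were tested on simulated data. Correlations used 100000 permutations (2-sided), adjusted over 15 pairs (scipy 1.17.1, Python 3.11.15). In each partner list the 3 members with the smallest p are named, except 1 that is not reported here, and for Hdac5 and Mef2d the 3 genes with the highest correlation. Camk2b and the other named genes follow this rule, while Rnf40, Ptprc, Cd68, Csf1r, Kdr, Cdh5 and Pecam1 were picked with their values in view. The genes and lists were chosen with earlier results of these data known. GENCODE M21 (GRCm38) gave positions and lengths, and the authors may have used another build. Depth per library is known only through the commonest low value. Alternatives were other scalings, filters, pseudocounts, variance estimates, library weights, covariates and the omission of libraries.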

Additional observations from a re-analysis of the deposited data

Results flagged for a closer look

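Among 17 groups of 5 libraries with any spread, for the 7 genes with a row and for Grk5 and Esr1, 3 held a library far from the other 4. The rule's rate of about 1 in 20 holds for normally spread values. These normalized counts were not shown to be such, and the groups share libraries, so the 3 are a description. Control 5 was the highest control for Hdac4, at 884.8 normalized counts with a gap of 0.723 of the controls' range to the next library, and for Hdac5, at 1357.1 with a gap of 0.730. Control 5 was also 1 of the 2 controls that held Esr1 (773.5), and the only library with Hdac7 listed at 0. Mef2c was listed at 6.4 in control 4 and at 0 in the other controls, which is a single low value. With the other controls at 0 its gap is the whole range at any size of that value.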

How the results depend on the processing

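No paired analysis was possible because the labels give the groups no shared replicate numbers. Of 11711 genes, 0 passed the adjusted threshold by limma and 587 had an unadjusted p under 0.05. The number that passed was 1 without controls 2 and 5 (Esr1, by which those libraries were chosen), 3 without controls 2, 3 and 5 (Esr1, Amy2a1 and Herc4), and 0 to 1 with single libraries left out (Ppp4r1l-ps without control 1). No class IIa HDAC or MEF2 gene passed under any alternative run. Signs turned for Hdac5 with the acinar covariate (0.0056), without controls 2 and 5 (0.015) and without controls 2, 3 and 5 (0.059), for Hdac9 in the same 3 settings (0.067, 0.16 and 0.75) and for Mef2a with upper-quartile scaling (-0.0074), without controls 2 and 5 (-0.046) and without controls 2, 3 and 5 (-0.46). Hdac6 turned to -0.091 with the acinar covariate. The cause of these turns was not tested. With single libraries left out, Hdac4 ran from -0.15 to 0.60, Hdac5 from -0.26 to 0.083, Hdac7 from 0.59 to 1.58, Hdac9 from -0.98 to 0.39, Mef2a from -0.19 to 0.14 and Mef2d from -0.35 to -0.024. Of the 15 correlations between these genes, 1 passed, against 0 with a pseudocount of 1, 0 without controls 2 and 5, 0 without control 5 (an alternative chosen after seeing the data) and 2 on deviations from the group means. Scaling by median ratios gave 587 genes at an unadjusted p under 0.05, as the deposited values did. Depth may limit the low genes most. The commonest low value of knockout 1, which may stand for 1 read, was 3.55 normalized counts. In that library Hdac7 stood at 70.2, and Hdac9 and Mef2c were listed at 0.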
